A study of Sus scrofa with 6 samples.

Results

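Single-cell RNA profiles of skin were compared between the library labelled continuous and the library labelled pretreatment, the only 2 of the 6 libraries of the series whose feature lists hold no hashtag antibodies. Both were described by the submitters as unsorted skin cells of the red duroc pig, digested with collagenase, captured in droplets with the 10x Single Cell 3' v3 kit and read on a NextSeq 500. Both carried a 1 mg DFO TDDS patch, DFO being deferoxamine. In the library labelled pretreatment the patch was given 2 weeks before radiotherapy, and in the library labelled continuous it was worn for 18 weeks in total, over the whole experiment. The labels give neither the number of animals behind a library nor the interval between irradiation and sampling, so both groups may be 1 animal each. A cell was kept if it had 500 or more unique molecular identifiers (UMIs, one per captured RNA molecule) from 300 or more genes, with no more than 20% of them mitochondrial. This left 10415 of the 83559 cells that passed in all 6 libraries, 1499 in the library labelled pretreatment and 8916 in the library labelled continuous.

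The feature lists do not match the stated species. All 32285 gene features of both libraries carry mouse Ensembl identifiers and mouse symbols, while the labels name the pig and the submitters' processing notes name the pig build Sscrofa11.1; the title of the series concerns an anti-JUN therapeutic and adhesions. What the libraries were drawn from cannot be settled from the labels, so they are called by their labels below, and no difference between them is ascribed to the patch or to radiation. With 1 library a side there is no replicate check and no test: every interval given is an exact 95% interval for counting error only (Clopper-Pearson for shares, conditional binomial for ratios of summed UMIs), and the spread between animals, samplings or library preparations cannot be told apart from the difference between the labels.

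As background, skin holds keratinocytes in its epidermis and follicles, fibroblasts that make the collagen and elastin of the dermis, vessels with their pericytes, and a resident set of macrophages, dendritic cells and lymphocytes, to which neutrophils and monocytes are added from blood during inflammation. Dendritic cells carry antigen to lymph nodes, regulatory T cells restrain immune responses, and gamma-delta T cells of the dermis are known producers of interleukin 17. Deferoxamine binds iron, and iron is needed by the enzymes that mark hypoxia-inducible factor for destruction, so hypoxia and iron-handling genes were among the gene lists examined.

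The library labelled pretreatment was small and deep, and the library labelled continuous large and shallow. The first held 1811 barcodes and 18611144 UMIs, with a median of 7040 per barcode, and the second 9862 barcodes and 41423107 UMIs, with a median of 3023. Scores for doublets (droplets holding more than 1 cell) took out 22 and 222 cells, and 1477 and 8694 cells remained, with median mitochondrial shares of 3.43% and 3.07%. The libraries shared 6 barcodes, 5 of them past the filter. The library labelled pretreatment also stood apart from the rest of the series: over 30 lists of cell type markers, its summed level lay outside the range of the other 4 libraries for 11 lists below and 12 above, against 3 below and 5 above for the library labelled continuous. No library can be left out of a comparison of 1 against 1, so every result below rests on both.

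The make-up of the libraries differed in nearly every large class. Cells were clustered over both libraries into 40 clusters and named from marker genes. Neutrophil-like cells, the phagocytes first recruited from blood, were 19 of 1477 cells or 1.29% (interval 0.776 to 2.00) in the library labelled pretreatment and 3143 of 8694 or 36.2% (35.1 to 37.2) in the library labelled continuous. Macrophage or monocyte-like cells were 13.3% (11.6 to 15.1) and 27.7% (26.7 to 28.6). T or innate lymphoid-like cells were 9.21% (7.78 to 10.8) and 13.8% (13.1 to 14.6). These 3 classes were higher in the library labelled continuous, and the intervals of the libraries did not meet.

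Fibroblast-like and dendritic-like cells lay the other way. Fibroblast-like cells were 543 cells or 36.8% (34.3 to 39.3) of the library labelled pretreatment and 712 cells or 8.19% (7.62 to 8.79) of the library labelled continuous. Dendritic-like cells were 286 cells or 19.4% (17.4 to 21.5) and 161 cells or 1.85% (1.58 to 2.16). On re-clustering, groups of 113 and 29, 108 and 11, and 44 and 9 cells were dendritic-like by class. Their markers did not name a dendritic type, and whether they are dendritic cells or macrophages was not tested, as given below. Vascular endothelial-like cells were 6.84% (5.60 to 8.25) and 2.58% (2.25 to 2.93). Keratinocyte-like cells made up 6.30% (5.11 to 7.66) and 5.00% (4.56 to 5.48), with intervals that overlap and a difference, continuous minus pretreatment, of -1.29 percentage points (-2.73 to -0.015). Because shares sum to the whole, they were also taken over the cells that are not neutrophil-like: T or innate lymphoid-like cells were then 9.33% and 21.7%, macrophage or monocyte-like cells 13.4% and 43.3%, dendritic-like cells 19.6% and 2.90%, fibroblast-like cells 37.2% and 12.8%, and the keratinocyte-like difference turned to 1.46 percentage points higher in the library labelled continuous (interval -0.086 to 2.87).

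The small classes completed the picture. In the libraries labelled pretreatment and continuous, lymphatic endothelial-like cells were 20 or 1.35% (0.829 to 2.08) and 32 or 0.368% (0.252 to 0.519). Pericyte or smooth muscle-like cells were 29 or 1.96% (1.32 to 2.81) and 76 or 0.874% (0.689 to 1.09). Both were the larger share in the library labelled pretreatment. Schwann-like cells were 9 or 0.609% (0.279 to 1.15) and 41 or 0.472% (0.339 to 0.639). Mast or basophil-like cells were 10 or 0.677% (0.325 to 1.24) and 50 or 0.575% (0.427 to 0.7575). The intervals of these last classes overlapped between the libraries. Adipocyte-like cells were 0 of 1477, with an exact interval reaching up to 0.249%, against 47 cells or 0.541% (0.40 to 0.72). A further 35 and 164 cells stayed unnamed, in a cluster that mixed muscle, Schwann and melanocyte genes and in one led by haemoglobin genes.

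**Figure D1:**
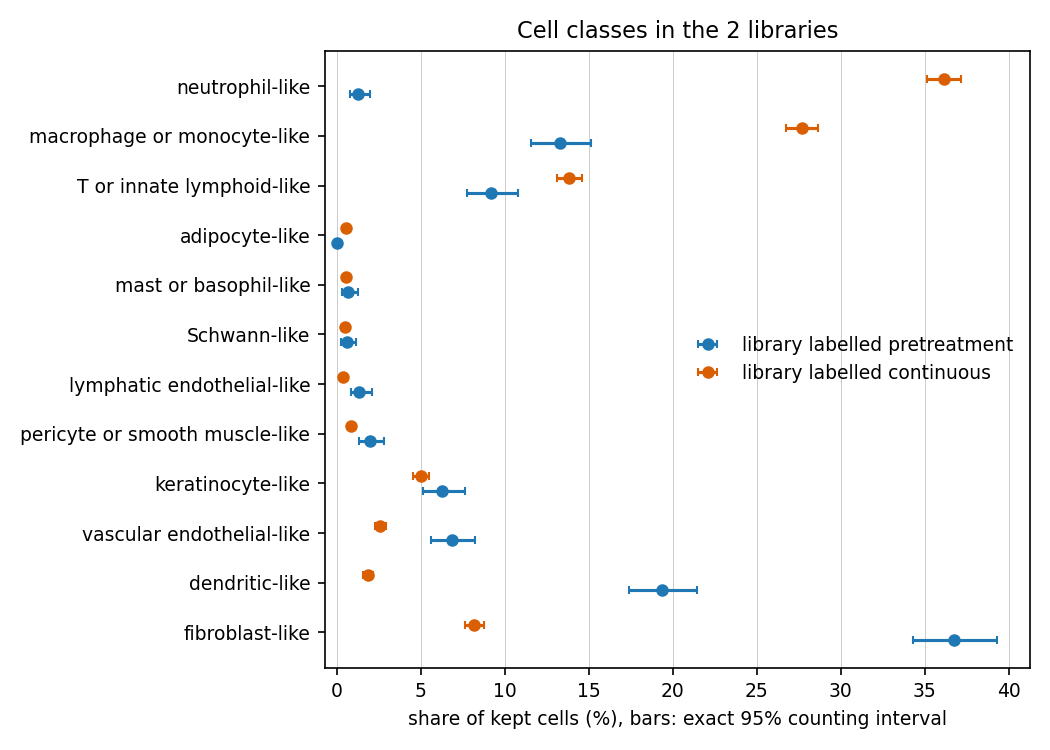
Share of kept cells (%) in each named class, for the library labelled pretreatment (blue) and the library labelled continuous (orange), 1 library each, with exact 95% counting intervals as bars. Neutrophil-like cells are at 1.29% and 36.2%, and fibroblast-like cells at 36.8% and 8.19%.

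The same order was seen without clusters. Summed over all cells past the filter, in CPM (UMIs per 1000000 UMIs of the sum), the 13 neutrophil markers stood at 1454 CPM in the library labelled pretreatment and 59270 CPM in the library labelled continuous, and both lay outside the 21200 to 30720 CPM of the other 4 libraries. The 8 markers of type 2 conventional dendritic cells, which present antigen to helper T cells, stood at 942 and 131 CPM, the other libraries lying between 74.8 and 139 CPM. Within this list Mgl2 (465 and 14.65 CPM) and Cd209a (156 and 6.96 CPM) differed more than Flt3 (7.08 and 3.79 CPM) and Zbtb46 (10.9 and 2.82 CPM). Fibroblast markers summed to 27500 and 6296 CPM, with the other libraries between 4712 and 17960 CPM. Monocyte markers were at 627 and 3007 CPM (others 1952 to 2917), macrophage markers at 3821 and 6291 CPM (others 3745 to 7571) and T cell markers at 205 and 523 CPM (others 370 to 820). For the markers of type 2 conventional dendritic cells, fibroblasts and T cells the library labelled pretreatment was the one outside the other 4, and for neutrophil and monocyte markers both were outside, on opposite sides. Melanocyte markers (59.3 and 3.34 CPM) and skeletal muscle markers (333 and 18.7 CPM) were 17.7-fold and 17.8-fold lower in the library labelled continuous. Erythroid genes were 8.31-fold higher there (398 and 3307 CPM). Adipocyte markers stood at 37.3 and 91.2 CPM, 2.45-fold higher, so their RNA was present in the library labelled pretreatment though no cell was named adipocyte-like there.

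**Figure D2:**
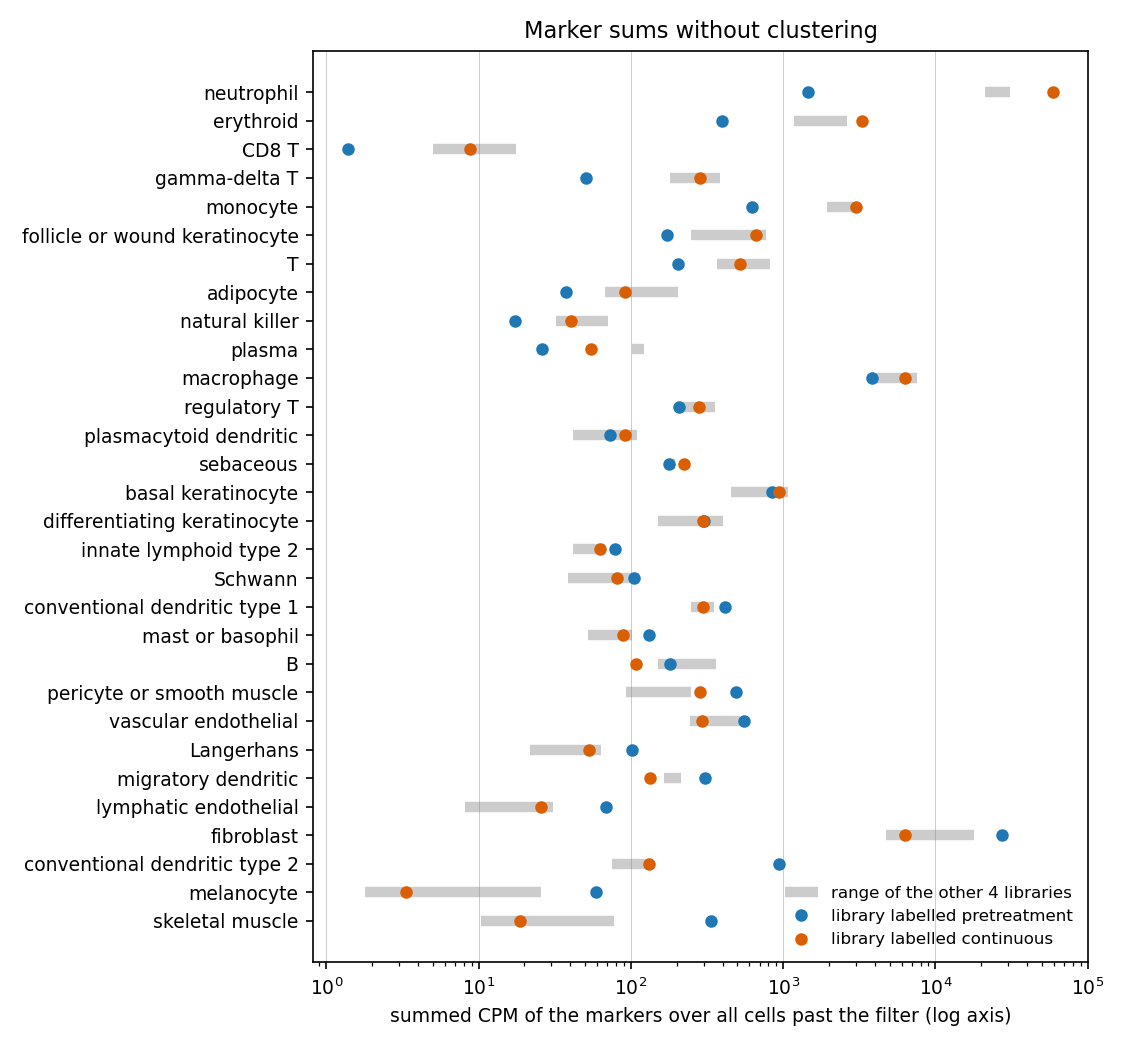
Summed CPM (log axis) of each cell type's markers over all cells past the filter, with the libraries labelled pretreatment (blue) and continuous (orange) as points and the range of the other 4 libraries as a grey bar. The blue point lies outside the bar for neutrophil, T and type 2 conventional dendritic markers, and the orange point lies outside it for neutrophil markers.

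UMIs of neutrophil genes were found throughout the other classes of the library labelled continuous, beside every gene comparison below. In cells thinned to 1000 UMIs each, at least 1 UMI of S100a8 or S100a9, the abundant calcium-binding genes of neutrophils, was found in 0.576% of fibroblast-like cells of the library labelled pretreatment and in 50% of those of the library labelled continuous. The shares were 2.38% and 58.0% in T or innate lymphoid-like cells, 1.14% and 57.2% in macrophage or monocyte-like cells and 0.707% and 47.5% in dendritic-like cells. They were 3.80% and 62.3% in keratinocyte-like cells and 2.25% and 53.6% in vascular endothelial-like cells. Unthinned, the shares over these 6 classes ran from 4.95% to 14.0% in the library labelled pretreatment and from 86.6% to 95.1% in the library labelled continuous. The median depth of neutrophil-like cells was 4535 and 2654 UMIs. When neutrophil RNA was taken off each class in proportion to its S100a8 and S100a9, between 0.700% and 2.62% of the UMIs of a class were removed in the library labelled continuous. No count of genes moved by over 1.5 times. This step takes all S100a8 and S100a9 of a class as neutrophil RNA, and whether a class makes some of it itself was not tested.

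Expression within a class was compared as the CPM of UMIs summed over its cells, for genes with at least 20 UMIs over both sums. A gene is counted as higher or lower where the ratio is at least 2-fold and its interval excludes 1. In fibroblast-like cells, 12709 genes were counted, of which 8.32% were higher and 5.59% lower in the library labelled continuous, with a median log2 ratio of 0.02. Cxcl5, Mmp13, Csf3 and Saa3 were higher there, and Eln, Mfap4 and Col1a1 were lower, as given below with the counts of each list.

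Cxcl5, U90926, Mmp13, Csf3 and Saa3 were among the genes with the largest ratios. Cxcl5, a chemokine that attracts neutrophils, had 33 UMIs (4.65 CPM) in the library labelled pretreatment and 10085 UMIs (1446 CPM) in the library labelled continuous, 311-fold higher (interval 221 to 452). Csf3, the growth factor of neutrophils, had 23 and 2569 UMIs (3.24 and 368 CPM), 114-fold higher (75.5 to 180). The acute-phase gene Saa3 went from 502 to 21780 CPM, 43.4-fold higher (42.0 to 44.9). U90926 had 0 and 930 UMIs, at least 315-fold higher against a floor of 3 UMIs. Of 36 NF-kB and inflammatory genes counted, 19 were higher and 0 lower, with a median log2 ratio of 1.19. The leukocyte adhesion genes Icam1 (399 and 247 CPM, 1.62-fold lower) and Vcam1 (172 and 108 CPM, 1.59-fold lower) of that list did not share the direction. Of 32 interferon-stimulated genes 18 were higher and 0 lower (median 1.13), among them Irf7, a transcription factor of the interferon response (19.2 and 116 CPM, 6.05-fold), and Ifit1, an antiviral RNA-binding protein (16.2 and 90.9 CPM, 5.61-fold).

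Genes of the extracellular matrix and of its turnover were counted as separate lists. Of 29 matrix proteases and inhibitors, 12 were higher and 3 lower in the library labelled continuous (median log2 ratio 0.87). The collagenase Mmp13 had 7 and 1331 UMIs (0.987 and 191 CPM), 193-fold higher (93.6 to 482). Timp1, an inhibitor of such enzymes, stood at 369 and 2541 CPM, 6.89-fold higher (6.61 to 7.18). Ctsk, a collagen-degrading cathepsin, went the other way, at 2608 and 901 CPM, 2.90-fold lower. The 55 collagen and matrix genes held 5 higher and 12 lower (median -0.18). The matricellular genes Tnc, at 154 and 1929 CPM (12.5-fold higher, 11.8 to 13.3), and Thbs1, at 375 and 1144 CPM (3.05-fold higher), were among the 5. Eln, which encodes elastin, stood at 973 and 236 CPM, 4.13-fold lower (3.92 to 4.36), and the microfibril gene Mfap4 at 1283 and 319 CPM, 4.02-fold lower. Col1a1, the main chain of type I collagen, stood at 18950 and 7356 CPM, 2.58-fold lower (2.55 to 2.60), and Col3a1 at 11230 and 8050 CPM, 1.40-fold lower.

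Iron handling and hypoxia genes were examined because of the patch. Of 31 iron handling genes counted, 12 were higher and 0 lower (median log2 ratio 0.67). Fth1, the heavy chain of the iron store ferritin, stood at 6861 and 15510 CPM, 2.26-fold higher (2.24 to 2.28), beside 39910 CPM in neutrophil-like cells of the library labelled continuous. The transferrin receptor Tfrc was low in both (113 and 167 UMIs, 1.503-fold higher, 1.18 to 1.93). The metal importer Slc39a8 stood at 5.36 and 69.7 CPM, 13.0-fold higher, and the ferroxidase Cp at 146 and 513 CPM, 3.51-fold higher. The metallothioneins Mt1 (2176 and 8074 CPM) and Mt2 (1170 and 4126 CPM) were 3.71-fold and 3.53-fold higher. Of 35 hypoxia and glycolysis genes, 9 were higher and 0 lower (median 0.56), including the cytokine Mif (2.53-fold), the glycolytic kinase Pgk1 (2.30-fold) and the vasoactive peptide Adm (2.25-fold). The angiogenic factor Vegfa, a target of hypoxia-inducible factor, stood at 111 and 127 CPM, 1.14-fold higher (1.04 to 1.26), and its direction turned with the weight of the clusters, as given below.

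Subtype, p53 target and proliferation genes were also counted. Of 32 subtype genes 6 were higher and 10 lower (median log2 ratio -0.40). Cilp, a cartilage and dermal matrix protein (866 and 246 CPM), was 3.52-fold lower, and Cd34, a marker of adventitial fibroblasts (512 and 157 CPM), 3.26-fold lower. The Wnt modulators Sfrp2 (25.1 and 100.0 CPM, 3.98-fold higher) and Sfrp4 (92.1 and 19.5 CPM, 4.72-fold lower) went opposite ways. The largest ratios towards the library labelled pretreatment were those of the steroid-metabolising reductase Akr1c14 (51.5 and 4.30 CPM, 12.0-fold), the cadherin Cdh4 (9.28-fold), the nuclear factor Aff3 (8.26-fold) and the matrix gene Ecm2 (182 and 30.3 CPM, 6.03-fold). Of 28 p53 target genes 7 were higher and 1 lower (median 0.74), while the cell cycle inhibitor Cdkn1a itself stood at 510 and 525 CPM, a ratio of 1.03 whose interval (0.982 to 1.08) includes 1. Jun, the AP-1 subunit named in the title of the series, stood at 1178 and 1111 CPM, 1.06-fold lower (1.03 to 1.09), and the AP-1 partner Fos at 1662 and 865 CPM, 1.92-fold lower. Of 38 proliferation genes 15 were higher and 0 lower (median 0.86), and the share of cells with Mki67 or Top2a after thinning was 0.960% and 2.37%, with overlapping intervals.

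The fibroblast-like class was not the same mixture in both libraries. A cluster led by Col1a1 and Col1a2 (cluster 7) held 57.6% of these cells in the library labelled pretreatment and 7.30% in the library labelled continuous, and a cluster led by Gpx3 and Cxcl5 (cluster 17) held 13.3% and 37.1%. Taking the 5 clusters one by one, Saa3, Fth1 and Mt1 were higher in the library labelled continuous in all 5, with intervals that exclude 1. Mmp13 and Tnc were higher in 4 and lower in 0, Cxcl5 was higher in 3 and lower in 0, and Ecm2 and Akr1c14 were lower in 5 of 5. Eln was lower in 4 of 5. Col1a1 was lower in 4 and higher in cluster 17. With the 5 clusters weighted equally the log2 ratio of Col1a1 was -0.76, that of Cyp2f2, a xenobiotic-metabolising enzyme at 319 and 60.7 CPM over the class, was -0.44, those of Ctsk and Vegfa reversed to 0.10 and -0.42, and those of Cdh4 (-1.14), Aff3 (-1.90), Csf3 (5.18) and Sfrp2 (0.79) were smaller than over the class. The proliferation list then had 0 genes higher and 1 lower. List counts with equal weights, here and below, take 2-fold alone, because the weighted levels have no interval of their own. Lists of genes of other cell types were higher in this class too. Of 9 cytotoxic and T cell effector genes 9 were higher (median log2 ratio 4.25), and of 15 keratinocyte basal and wound genes 10 were higher and 0 lower (2.17). Of 11 immune checkpoint genes 7 were higher and 2 lower (2.35). The T cell marker sum in the class was 2.54 and 39.2 CPM and the erythroid sum 22.4 and 767 CPM. The part of RNA from other cells in the results was not tested.

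**Figure D3:**
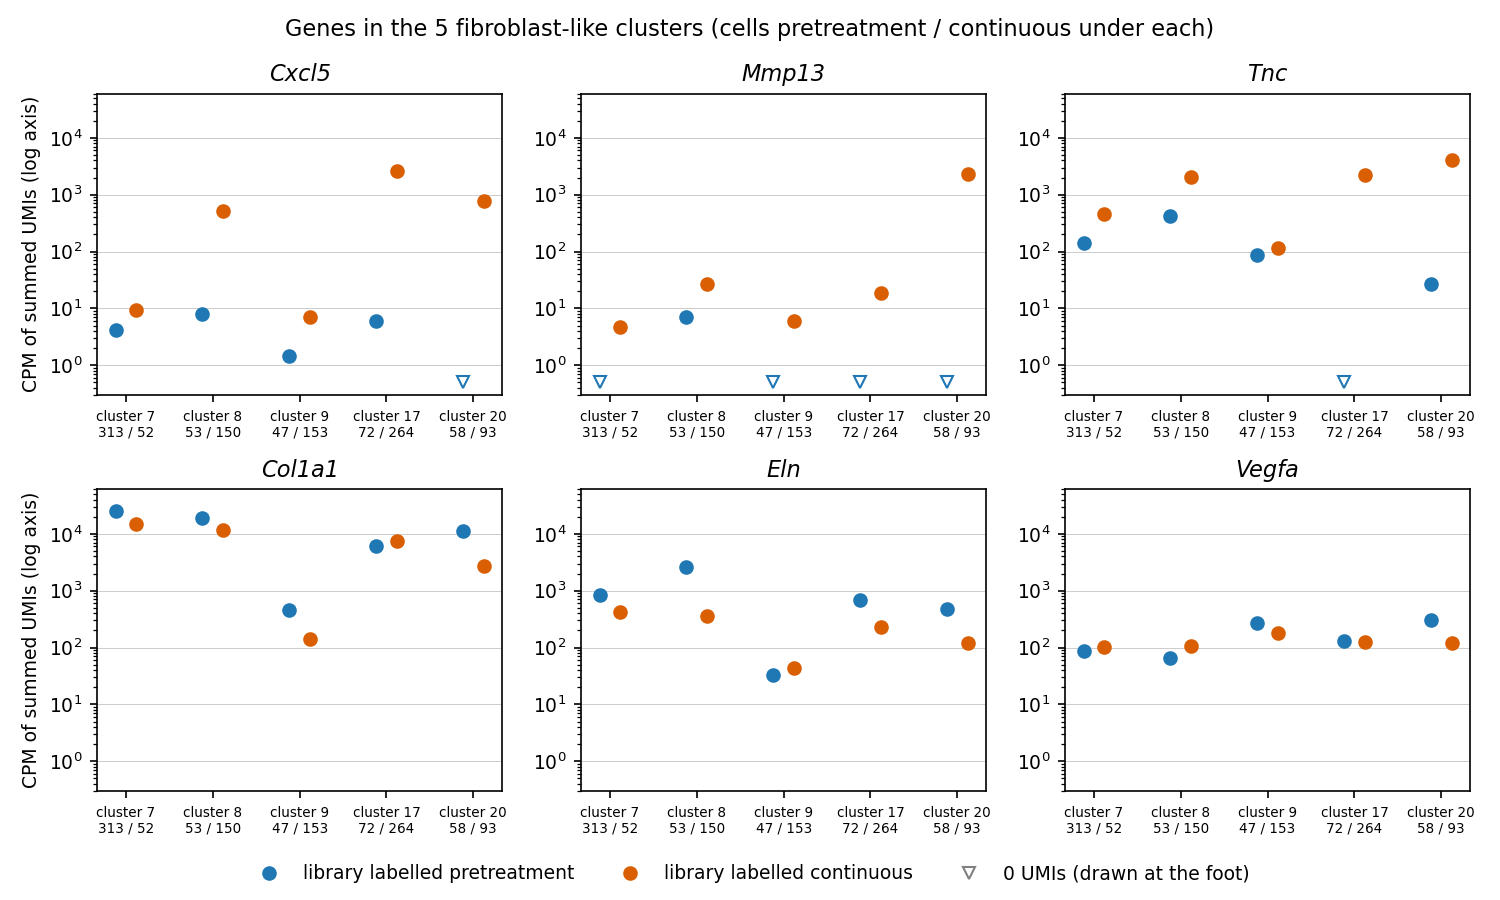
CPM of summed UMIs (log axis) of 6 genes in each of the 5 fibroblast-like clusters, for the library labelled pretreatment (blue) and the library labelled continuous (orange), with 0 UMIs drawn as open triangles at the foot and cell numbers below each cluster. Mmp13 and Tnc lie higher in orange in 4 clusters with intervals that exclude 1, and Col1a1 lies lower in 4.

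In macrophage or monocyte-like cells Cxcl9, Gbp5 and Inhba were higher and the lectin genes Mgl2 and Cd209d lower in the library labelled continuous. Of 10826 genes counted 5.51% were higher and 9.12% lower, with a median log2 ratio of -0.15; scaled by the median of the gene ratios instead, 783 genes were higher and 685 lower, so the share of higher among the called genes moved from 37.7% to 53.3%. Of 32 interferon-stimulated genes 29 were higher and 0 lower (median log2 ratio 1.98). Cxcl9, a chemokine induced by interferon-gamma, had 14 and 1645 UMIs (7.59 and 141 CPM), 18.6-fold higher (11.0 to 34.1), and the guanylate-binding protein Gbp5 had 11 and 1035 UMIs (14.9-fold, 8.28 to 29.9). Of 35 NF-kB and inflammatory genes 14 were higher and 0 lower (median 0.72). With equal weights over the 4 clusters that had at least 20 cells in both libraries, 8 of 33 were 2-fold higher (median 0.36). Nos2, which makes nitric oxide, had 0 and 584 UMIs, at least 30.8-fold higher, and stood at 141 CPM in the neutrophil-like cells of that library. The cytokine Il1a stood at 19.0 and 135 CPM, 7.09-fold higher.

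Arg1, which consumes arginine, had 3 and 807 UMIs, a ratio of 42.5 (14.5 to 207). Inhba, the activin A subunit, had 33 and 7147 UMIs (17.9 and 613 CPM), 34.2-fold higher (24.4 to 49.8). The secreted phosphoprotein Spp1 stood at 167 and 649 CPM (3.89-fold) and Thbs1 at 662 and 2472 CPM (3.73-fold). The checkpoint ligand Cd274 stood at 60.7 and 255 CPM (4.20-fold) and the receptor Havcr2 at 13.6 and 59.3 CPM (4.38-fold). Of 36 hypoxia and glycolysis genes 10 were higher and 0 lower (median 0.69), or 5 of 36 with equal weights (median 0.30), including Vegfa at 51.0 and 183 CPM (3.59-fold, 2.92 to 4.46) and the lactate exporter Slc16a3 at 81.4 and 279 CPM (3.43-fold). Of 29 iron handling genes 5 were higher and 8 lower (median -0.47). With the 4 clusters weighted equally, and by 2-fold alone, 3 were higher and 1 lower, with a median of 0.01 against -0.02 over all genes. Fth1 was 2.16-fold higher (10870 and 23440 CPM), while Tfrc (122 and 37.5 CPM) was 3.24-fold lower and the haem-degrading enzyme Hmox1 (842 and 604 CPM) 1.39-fold lower.

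The lectin gene Mgl2, expressed by skin macrophages and dendritic cells, had 700 and 159 UMIs (380 and 13.6 CPM), 27.9-fold lower (23.4 to 33.3), and Cd209d, a pathogen-binding lectin, stood at 707 and 45.2 CPM, 15.6-fold lower (14.1 to 17.3). The related Cd209e and Cd209a were 17.2-fold and 10.8-fold lower. The haemoglobin scavenger receptor Cd163 stood at 684 and 143 CPM, 4.79-fold lower, the carbonyl reductase Cbr2 at 698 and 118 CPM, 5.91-fold lower, and the lipoprotein lipase Lpl at 201 and 52.4 CPM, 3.83-fold lower. Over the whole list of 28 scavenger and lipid genes, 6 were higher and 7 lower (median log2 ratio 0.18). With the 4 clusters weighted equally, and by 2-fold alone, 8 were higher and 0 lower (median 0.52). Of 30 immediate early genes 1 was higher and 5 lower (median -0.14), with the transcription factors Egr1 (3.74-fold) and Klf4 (2.86-fold) among the 5. The complement factor Cfb (141 and 322 CPM) was 2.29-fold higher.

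The clusters behind this class differed as well. Cluster 5 held 42.9% of these cells in the library labelled pretreatment and 13.7% in the library labelled continuous. A cluster led by Chil3 (cluster 15) held 9 and 548 cells, cluster 27 held 8 and 347, and cluster 29 held 0 and 153. Clusters 15, 27 and 29 had under 20 cells in the library labelled pretreatment, so equal weights leave these cells out. In the 4 clusters with at least 20 cells in both libraries, Fth1, Cfb, Cd274 and Slc16a3 were higher in 4 of 4, Cbr2 and Klf4 lower in 4 of 4, Mgl2 and Cd163 lower in 3 and higher in 0, and Cd209d lower in 2 and higher in 0. Weighted equally over those clusters, the log2 ratios of Spp1 (0.40), Thbs1 (0.93), Slc16a3 (0.75), Fth1 (0.82), Cd163 (-0.75), Tfrc (-0.97), Egr1 (-0.62) and Lpl (-0.51) were under 2-fold. That of Inhba was 2.06, that of Mgl2 -3.60 and that of Cd209d -2.26, each smaller than over the class. The monocyte marker sum in the class was 1944 and 6299 CPM and the neutrophil sum 410 and 4389 CPM; their part in the results was not tested.

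Dendritic-like cells had the highest median ratio of interferon-stimulated genes among the 6 classes compared. Of 9444 genes counted 7.98% were higher and 5.69% lower in the library labelled continuous (median log2 ratio -0.09), while 28 of 29 interferon-stimulated genes were higher and 0 lower, with a median of 2.69. Rsad2, which blocks viral replication, had 24 and 105 UMIs (4.78 and 101 CPM), 21.2-fold higher (13.5 to 34.5), and Irf7 had 31 and 114 UMIs, 17.8-fold higher (11.9 to 27.4). Plac8 stood at 29.3 and 590 CPM, 20.2-fold higher, and the T cell-attracting chemokine Ccl5 at 45.2 and 627 CPM, 13.9-fold higher. Of 30 NF-kB and inflammatory genes 16 were higher and 0 lower (median 1.03), among them the prostaglandin synthase Ptgs2 (434 and 1465 CPM, 3.38-fold) and the cytokine Il1b (1520 and 4494 CPM, 2.96-fold), which stood at 12140 CPM in neutrophil-like cells of the same library. The costimulatory receptor Tnfrsf9 (14.9 and 158 CPM) was 10.6-fold higher and Cd274 (83.6 and 342 CPM) 4.09-fold higher. Of 11 complement genes 6 were higher and 0 lower (median 1.58), including C1qa (108 and 536 CPM, 4.99-fold) and C1qc (71.9 and 285 CPM, 3.96-fold), genes typical of macrophages, beside a macrophage marker sum in the class of 1713 and 2623 CPM.

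Genes lower in these cells included Mucl1, Alox15, Slc27a3 and Cd209d. Mucl1 had 589 UMIs in the library labelled pretreatment and 1 in the library labelled continuous, a ratio of 122 (21.8 to 4820). Alox15, a lipoxygenase, had 271 and 0 UMIs, at least 18.7-fold lower. The fatty acid transporter Slc27a3 had 798 and 11 UMIs, 15.0-fold lower (8.34 to 30.2), and Cd209d stood at 491 and 57.8 CPM, 8.50-fold lower, as in the macrophage or monocyte-like cells. Hmox1 (735 and 180 CPM, 4.09-fold) and the haem transporter Slc48a1 (91.2 and 31.8 CPM, 2.87-fold) were lower. Of 37 proliferation genes 0 were higher and 6 lower (median -0.60), with the mitotic ubiquitin-conjugating enzyme Ube2c 2.72-fold and the microtubule regulator Stmn1 2.19-fold lower. The share of thinned cells with Mki67 or Top2a was 13.4% and 13.9%. The 11 MHC class II genes stood close to all genes, with 2 higher, 0 lower and a median of -0.06, and the peptide-loading subunits H2-DMa and H2-DMb1 were 1.92-fold and 1.55-fold lower.

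What was called dendritic-like differed in kind between the libraries. Cluster 0, led by Mgl2, Ear2, Cd209a and MHC class II genes, held 76.6% of the class in the library labelled pretreatment and 24.2% in the library labelled continuous. Cluster 26, led by Ccl22, Ccr7 and Fscn1, genes of dendritic cells that migrate to lymph nodes, held 9.79% and 68.9%. The type 2 conventional marker sum in the class was 2895 and 1437 CPM, and the migratory sum 786 and 1911 CPM. Mgl2 and the Cd209 lectins that lead cluster 0 were lower in macrophage or monocyte-like cells too, so the size of cluster 0 and the level of these genes are not separate measurements. The direction of Ccr7 depended on whether clusters were summed: over the class it was 3.14-fold higher in the library labelled continuous (241 and 756 CPM), and within each of clusters 0 and 26 it was lower, with an equal-weight log2 ratio of -0.36. Rsad2, Irf7, Plac8, Ptgs2, Il1b and C1qa were higher in both clusters, and Slc27a3, Mucl1 and Cd209d lower in both. With equal weights the log2 ratio of Ccl5 was 1.24, that of Tnfrsf9 1.16 and that of Hmox1 -0.82, against 3.79, 3.40 and -2.03 over the class. Ccl17, a chemokine of skin-homing T cells, was 1.41-fold lower over the class, and its direction turned with thinning. Re-clustering the MHC class II-high cells of both libraries (338 and 778 cells) gave a group named migratory dendritic-like by its markers with 12 and 30 cells, or 3.55% (1.85 to 6.12) and 3.86% (2.62 to 5.46), of these cells, and one named type 1 conventional dendritic-like with 12 and 15 cells, or 3.55% (1.85 to 6.12) and 1.93% (1.08 to 3.16). Of all kept cells the migratory group was 0.813% (0.421 to 1.42) and 0.345% (0.233 to 0.492). The migratory marker sum over the whole library was likewise larger in the library labelled pretreatment, at 306 and 133 CPM. Re-clustered groups led by Retnla and Ear2 (113 and 29 cells), by Cd209d and Ear2 (108 and 11) and by Pclaf and Ear2 (44 and 9) were dendritic-like by class. Their markers did not name them as a dendritic type. Whether these cells are dendritic cells or macrophages was not tested. Plasmacytoid-like cells were 0 of all 1477 kept cells in the library labelled pretreatment, with an exact interval reaching up to 0.249%. In the library labelled continuous they were 12 or 0.138% (0.0713 to 0.241) of all kept cells, which lies under that bound. B-like cells, found only among the re-clustered cells, were 1 or 0.0677% (0.0017 to 0.377) and 16 or 0.184% (0.105 to 0.299) of all kept cells, with overlapping intervals. The B marker sum over the whole library lay the other way, at 182 and 108 CPM. The same markers summed to 303 and 332 CPM in fibroblast-like cells and to 456 and 352 CPM in vascular endothelial-like cells. The part of these classes in the sum was not tested. The single B marker Cd79a stood at 2.56 and 2.07 CPM over the whole library.

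In T or innate lymphoid-like cells the interleukin genes Il22, Il17a and Il17f were higher in the library labelled continuous, by ratios that rest on the doublet calls. Of 9590 genes counted 6.32% were higher and 3.36% lower in the library labelled continuous, with a median log2 ratio of 0.02. Il22, a cytokine that acts on keratinocytes, had 12 and 2810 UMIs (13.0 and 720 CPM), 55.2-fold higher (31.5 to 107). Il17a had 78 and 6423 UMIs (84.7 and 1645 CPM), 19.4-fold higher (15.5 to 24.6), and Il17f 139 and 8593 UMIs (151 and 2200 CPM), 14.6-fold higher (12.3 to 17.4). The 22 barcodes removed as doublets from the library labelled pretreatment were its highest scores, while the other library used the scorer's own threshold. A single one of the 22, of 10844 UMIs, held 316 UMIs of Il22, 235 of Il17a and 330 of Il17f. It was T or innate lymphoid-like when kept, and whether it is a doublet was not tested. With called doublets kept the log2 ratios were 1.15 for Il22, 2.34 for Il17a and 2.14 for Il17f, against 5.79, 4.28 and 3.87 without them. Over all cells past the filter, Il22 stood at 18.3 and 84.1 CPM, Il17a at 17.6 and 183 CPM and Il17f at 26.5 and 244 CPM. The transcription factor Batf3 had 1 and 283 UMIs, a ratio of 66.7 (11.9 to 2644). Over 23 cytotoxic and effector genes, 7 were higher and 1 lower (median 0.36), against a median of 0.02 over all genes, so the large ratios of these cytokines were not shared by the list. The growth factor Areg stood at 380 and 899 CPM, 2.36-fold higher over the class.

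Of 35 NF-kB and inflammatory genes 14 were higher and 0 lower in these cells (median log2 ratio 0.62), and of 28 interferon-stimulated genes 8 were higher and 0 lower (median 0.70). Of 17 checkpoint genes 2 were higher and 1 lower (median 0.18). The inhibitory receptors Pdcd1 (61.9 and 187 CPM, 3.01-fold, 2.30 to 4.02) and Havcr2 (47.8 and 115 CPM, 2.41-fold) were the 2, and the costimulatory receptors Tnfrsf18 and Tnfrsf4 stood 1.59-fold and 1.41-fold lower. The homing receptors Cxcr4 (139 and 344 CPM) and Cxcr6 (294 and 664 CPM) were 2.48-fold and 2.26-fold higher, and Ccr7, which guides cells to lymph nodes, 3.05-fold lower (168 and 55.3 CPM). Tcf7, a transcription factor of less differentiated T cells, stood at 51.1 and 90.6 CPM, 1.78-fold higher. The nuclear envelope gene Lmna (1091 and 310 CPM, 3.52-fold), the actin regulator Raph1 (323 and 93.5 CPM, 3.45-fold) and Ikzf2, a transcription factor of regulatory T cells (1572 and 577 CPM, 2.73-fold), were lower. Stmn1 was 1.87-fold and Mki67 1.46-fold lower, and the share of thinned cells with Mki67 or Top2a was 18.3% and 17.4%.

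Subsets of this class were named by re-clustering it alone. Regulatory T-like cells were 54 of 136 or 39.7% (31.4 to 48.5) in the library labelled pretreatment and 202 of 1203 or 16.8% (14.7 to 19.0) in the library labelled continuous. Type 2 innate lymphoid-like cells, the source of Il5 and Il13, were 19 or 14.0% (8.63 to 21.0) and 43 or 3.57% (2.60 to 4.79). Both were the larger share in the library labelled pretreatment. Gamma-delta T-like cells were 9 or 6.62% (3.07 to 12.2) and 182 or 15.1% (13.2 to 17.3), and CD8 T-like cells 4 or 2.94% (0.807 to 7.36) and 135 or 11.2% (9.49 to 13.1). Natural killer-like cells, at 9 or 6.62% (3.07 to 12.2) and 75 or 6.23% (4.94 to 7.75), overlapped between the libraries. The remaining cells fell into groups whose leading subset had under 3 markers detected, and these were not named. A group led by Xcl1 and Ifng, with Cd8a and Cd8b1 among its leading genes, held 20 or 14.7% (9.22 to 21.8) and 175 or 14.55% (12.6 to 16.7). The group led by Il17f, Il22 and Il17a held 0 and 123 cells. Groups led by Tbc1d4 (6 and 163 cells) and by histone genes (15 and 105) also had Il17a and Il17f among their leading genes. The marker sums over the whole class had the order of the first 4 subsets: 3635 and 2458 CPM for regulatory T, 677 and 305 CPM for type 2 innate lymphoid, 705 and 2526 CPM for gamma-delta T, and 5.43 and 70.9 CPM for CD8 T markers. Natural killer markers summed to 323 and 354 CPM. Il17a is 1 of the gamma-delta markers and Ikzf2 and Tnfrsf4 are regulatory T markers, so those shares and those genes are not separate measurements.

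**Figure D4:**
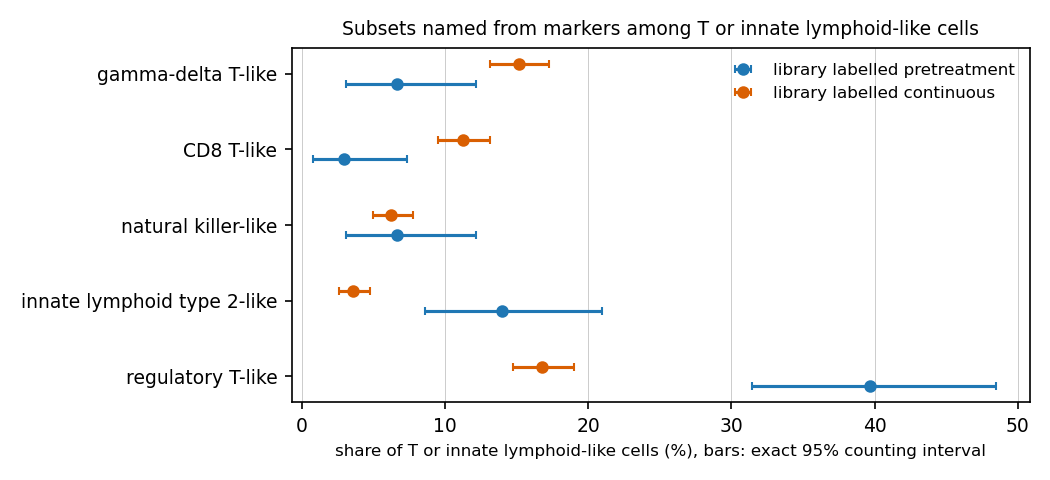
Share (%) of T or innate lymphoid-like cells in each subset named from its markers, for the libraries labelled pretreatment (blue, 136 cells) and continuous (orange, 1203 cells), with exact 95% counting intervals as bars. Regulatory T-like cells are at 39.7% and 16.8%, and natural killer-like cells at 6.62% and 6.23%.

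Several of these ratios were different within clusters. Clusters 24, 34 and 35, led by Il17a and Il17f, held 4 and 170, 14 and 91, and 10 and 192 cells. They were left out for having under 20 cells in the library labelled pretreatment, so the ratios within them were not tested. In the 2 clusters with at least 20 cells in both libraries, cluster 22 (T) and cluster 25 (regulatory T), Il17a and Il17f were higher in the library labelled continuous in both. Their levels there were between 85.5 and 188 CPM, against 1645 and 2200 CPM over the class, and no more than 6.19 CPM in the library labelled pretreatment. Lmna and Stmn1 were lower in both. Ikzf2, lower over the class, was higher in 1 and lower in 0, and its equal-weight log2 ratio was -0.03. The equal-weight ratios of Tnfrsf18 and Tnfrsf4 turned to 0.22 and 0.79, that of Areg to -0.64, that of Il22 was 3.25, and that of Cxcr6 was 0.23. Those of Havcr2 (0.95), Cxcr4 (0.97), Raph1 (-0.98) and Ccr7 (-0.24) were under 2-fold, Ccr7 having a ratio of 2.15 (0.978 to 5.57) in cluster 22 and 0.589 (0.410 to 0.843) in cluster 25. Within regulatory T-like cells alone, 4516 genes were counted, of which 6.13% were higher and 3.37% lower (median 0.04). There Tnfrsf4 (790 and 1440 CPM) was 1.82-fold higher, Tnfrsf9 (619 and 1114 CPM) 1.80-fold higher and the cytotoxic protease Gzmb (338 and 963 CPM) 2.85-fold higher. The opioid precursor Penk had 1 and 110 UMIs, a ratio of 63.4 (11.14 to 2526), Gimap6 was 6.09-fold higher (53.2 and 324 CPM), the chromatin organiser Satb1 4.36-fold higher (213 and 928 CPM) and the interferon-inducible Ifi27l2a 3.22-fold higher. Of 15 interferon-stimulated genes 7 were higher and 1 lower (median 0.99), and of 25 immediate early genes 1 was higher and 7 lower (median -0.52), Nr4a1, which responds to T cell receptor signals, among them (870 and 341 CPM, 2.55-fold lower). Lmna was 5.10-fold and Raph1 2.55-fold lower.

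Keratinocyte-like cells differed in wound keratins and cornified envelope genes. Of 10740 genes counted 9.31% were higher and 2.74% lower in the library labelled continuous, with a median log2 ratio of 0.10. Krt6a, a keratin of wounded and follicular epidermis, had 7 and 2739 UMIs (4.86 and 689 CPM), 142-fold higher (68.7 to 353). The envelope precursor Sprr1b had 1 and 335 UMIs, a ratio of 121 (21.6 to 4807), and Sprr2d had 0 and 502 UMIs, at least 60.6-fold higher. Krt25, a keratin of the hair follicle's inner root sheath, had 0 and 489 UMIs, at least 59.0-fold higher, and Crct1 had 0 and 462 UMIs, at least 55.8-fold higher. Of 23 basal and wound genes 15 were higher and 1 lower (median 1.30), a list that also holds S100a8 and S100a9. Differentiation genes had no shared direction, with 3 higher and 3 lower of 16 (median -0.24): the protease Klk7 was 4.54-fold higher (14.6 and 66.2 CPM), while Krt10, the keratin of suprabasal epidermis, was 6.80-fold lower (636 and 93.6 CPM) and Krt77 16.95-fold lower (183 and 10.8 CPM). The basal keratins Krt15 (1267 and 247 CPM, 5.14-fold) and Krt5 (1761 and 1442 CPM, 1.22-fold) were lower.

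Of 35 NF-kB and inflammatory genes 20 were higher and 0 lower in these cells (median log2 ratio 1.70). This became 13 and 0 of 28 (median 0.95) once RNA was taken off as neutrophil RNA by S100a8 and S100a9. The removal was the largest of the classes compared (2.62% of UMIs), and both genes are also in the basal and wound list. Of 20 interferon-stimulated genes 11 were higher and 0 lower (median 1.48), or 6 and 0 of 14 (median 1.03) with neutrophil RNA taken off. Of 24 matrix proteases and inhibitors 18 were higher and 0 lower (median 1.43), with Mmp13 at 1 and 227 UMIs, a ratio of 82.2 (14.6 to 3262). Of 14 complement genes 11 were higher and 1 lower (median 2.60), and 6 of 6 MHC class II genes were higher (median 2.82), while of 16 MHC class I genes 0 were higher and 0 lower (median 0.32). The monocyte marker sum in the class was 8.33 and 148 CPM and the neutrophil sum 169 and 6672 CPM, and their part in these lists was not tested. The metallothionein Mt2 (530 and 2122 CPM) was 4.00-fold higher, the Notch ligand Jag1 (55.6 and 132 CPM) 2.38-fold and the p53 target Plk2 (38.2 and 146 CPM) 3.83-fold higher, against 1.49-fold for Cdkn1a and 1.64-fold for Vegfa. The proliferation genes Mki67 (38.9 and 127 CPM, 3.27-fold) and Top2a (38.9 and 119 CPM, 3.05-fold) were higher, and the share of thinned cells with either was 6.33% (2.09 to 14.2) and 11.5% (8.42 to 15.3).

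The 2 keratinocyte-like clusters had like shares in both libraries, cluster 4 holding 66 and 288 cells and cluster 28, led by the lipid synthesis genes Elovl6 and Scd1, 27 and 147. Cluster 28 had 0 keratinocyte markers among its 10 leading genes, though 15 were detected. The sebaceous marker sum in the class was 1366 and 1006 CPM, and the part of sebaceous cells in the results was not tested. Krt6a, Sprr1b, Crct1, Mki67, Top2a, Mt2 and Jag1 were higher in both clusters, and Krt10 and Krt15 lower in both. Sprr2d, Krt25 and Mmp13 were higher in 1 and lower in 0, and Krt5 was higher in 1 and lower in the other. The pigment genes Dct (221 and 5 UMIs, 122-fold lower, 51.5 to 380) and Pmel (118 and 3 UMIs, a ratio of 109, 36.3 to 534) belong to melanocytes, whose marker sum in this class was 291 and 2.01 CPM. The progestin receptor Paqr7 had 111 and 21 UMIs, 14.6-fold lower.

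Vascular endothelial-like cells, 101 and 224, had interferon-stimulated genes higher in the library labelled continuous. Of 7968 genes counted 5.11% were higher and 2.62% lower in the library labelled continuous, with a median log2 ratio of 0.04. Of 30 interferon-stimulated genes 13 were higher and 0 lower (median 0.90), with Cxcl9 at 71.2 and 280 CPM (3.93-fold, 2.94 to 5.33) and Gbp2 at 106 and 302 CPM (2.84-fold). Ubd, a ubiquitin-like modifier induced by interferon-gamma, had 2 and 138 UMIs, a ratio of 57.7 (15.7 to 481), and Lgals3bp was 4.98-fold higher (31.2 and 156 CPM). Of 30 NF-kB and inflammatory genes 9 were higher and 0 lower (median 0.46). The adhesion molecule Vcam1 (72.4 and 142 CPM) was 1.96-fold higher, while Icam1 (627 and 496 CPM) was 1.26-fold lower. All 5 MHC class II genes counted were higher (median 2.16), beside a macrophage marker sum in the class of 578 and 1009 CPM, and this depended on the doublet calls: with called doublets kept, the median less that of all genes was -0.017.

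Angiogenic genes had a median log2 ratio close to that of all genes in these cells (0.04). Of the 32 counted, 7 were higher and 0 lower, where 5.11% of all genes counted were higher and 2.62% lower. Col18a1, the source of endostatin (192 and 434 CPM), was 2.26-fold higher, the chemokine Cxcl12 (1048 and 584 CPM) 1.80-fold lower and the angiopoietin receptor Tek (201 and 125 CPM) 1.61-fold lower. The stress genes Phlda3 (10 and 107 UMIs, 8.94-fold, 4.68 to 19.2) and Gdf15 (306 and 652 CPM, 2.13-fold), both p53 targets, were higher, as was Igfbp3, which binds insulin-like growth factors (46.2 and 329 CPM, 7.12-fold). Lpl (749 and 302 CPM, 2.48-fold) and the flavin monooxygenases Fmo1 (156 and 51.2 CPM, 3.05-fold) and Fmo2 (301 and 104 CPM, 2.88-fold) were lower. The immediate early genes Fos (1199 and 639 CPM, 1.88-fold) and Egr1 (1573 and 875 CPM, 1.80-fold) were also lower. Abcc9, a potassium channel subunit of pericytes, was 4.57-fold lower (134 and 29.2 CPM), beside a pericyte marker sum in the class of 2458 and 1576 CPM whose part in it was not tested.

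Across the 6 classes, interferon-stimulated genes and NF-kB genes each had members higher and 0 lower in every class, and ribosomal protein genes had 0 of 37 counted on either side in each. Iron handling genes had a median log2 ratio above that of all genes in fibroblast-like cells (0.67) and below it in macrophage or monocyte-like cells (-0.47). In macrophage or monocyte-like cells the difference was gone with equal weights, which also leave out clusters 15, 27 and 29. Proliferation genes were at 0.86 in fibroblast-like cells, where equal weights removed the difference, and at -0.60 in dendritic-like cells. Whether any list differed between classes was not tested.

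**Figure D5:**
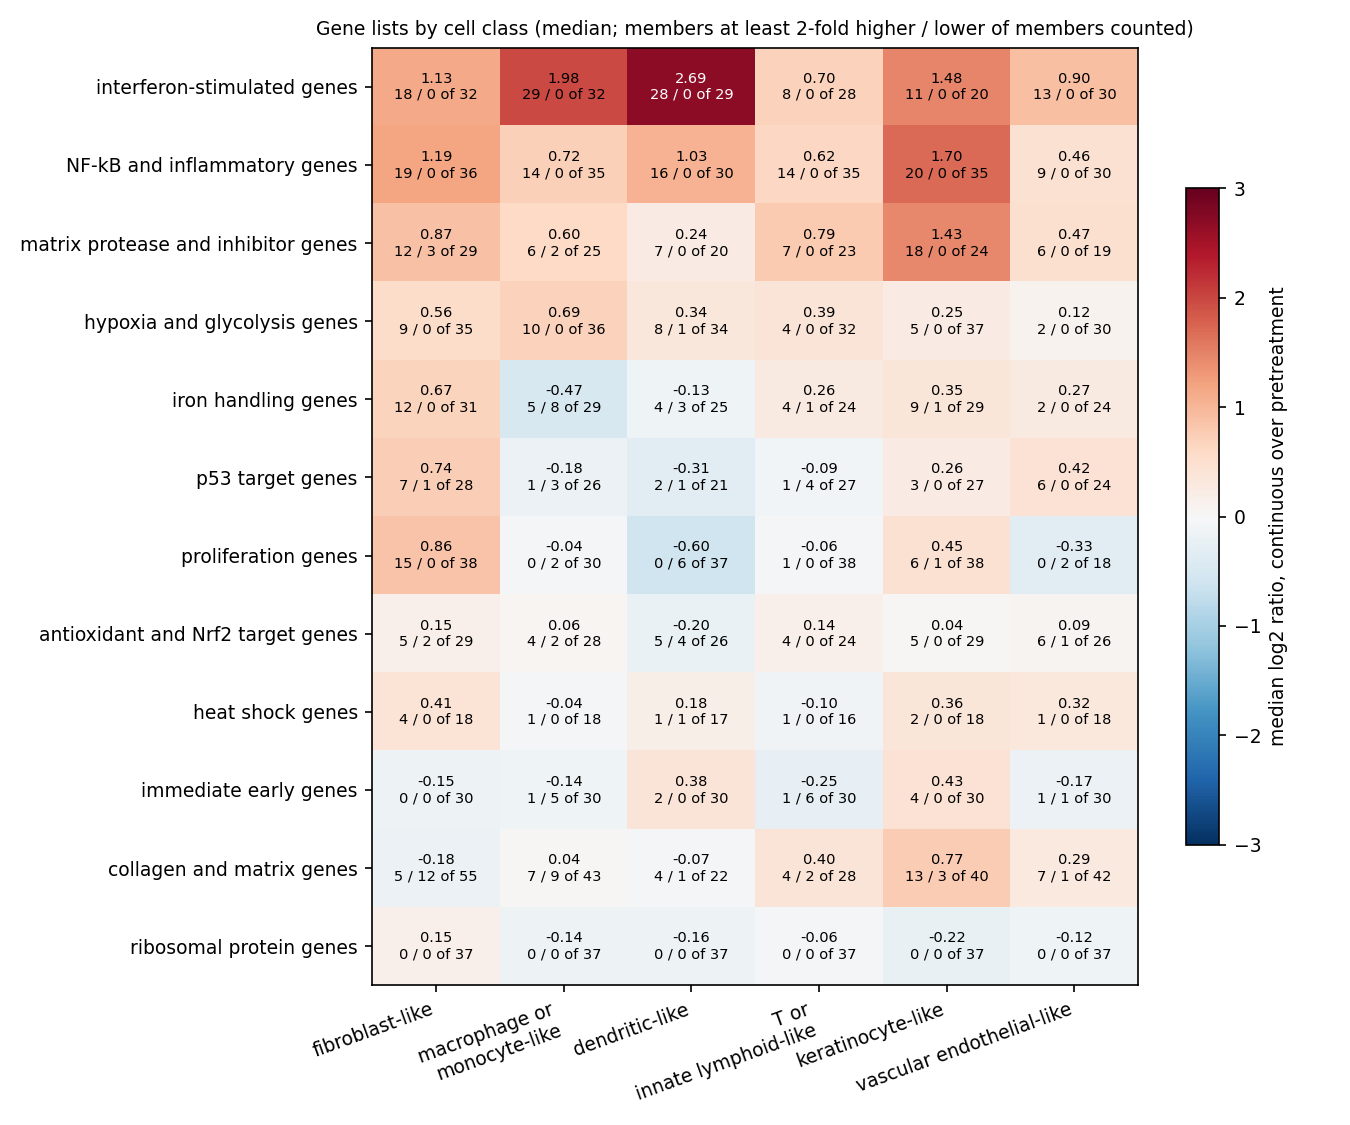
Median log2 ratio (colour), library labelled continuous over library labelled pretreatment, of 12 gene lists in 6 cell classes, with members at least 2-fold higher and lower of members counted printed in each cell. Interferon-stimulated genes run from 0.70 in T or innate lymphoid-like cells to 2.69 in dendritic-like cells, and ribosomal protein genes lie between -0.22 and 0.15.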

How the data were processed

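The deposited files are count matrices of UMIs per gene and barcode, made with Cell Ranger 6.0.0 per the file headers; the submitters' processing notes also name Seurat 5.0.1 and the build Sscrofa11.1, while the deposited features are mouse genes. The deposited barcodes have at least 500 UMIs. A step that removes free RNA is not given in the sources used here.

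Cells past the filter (500 UMIs, 300 genes, 20% mitochondrial) were scored with Scrublet in scanpy 1.11.5. Its threshold called 0.267% in the library labelled pretreatment, too few to have worked, so the 1.47% with the highest scores were removed there; it called 2.49% in the other. Counts of both libraries were scaled to 10000 UMIs, log transformed and clustered (2000 variable genes, 30 components, 15 neighbours, Leiden resolution 2). A cluster was named "X-like" for the class X with the most markers among its 10 leading genes, and then with the largest share of markers detected. A marker was detected if it reached 50 CPM and stood 2-fold or more above the median of the other clusters. Clusters with under 3 such markers, led by erythroid genes or with a larger share of another class's markers stayed unnamed. UMIs were summed per class with at least 50 cells in both libraries, and CPM ratios were given exact 95% intervals. A gene at 0 was set to a floor of 3 UMIs, and a class at 0 cells was given the upper end of its exact interval. Neutrophil-like cells, at 19 in 1 library, were left out of gene comparisons. Scripts were tested on simulated data.

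Named genes had at least 100 UMIs and 50 CPM in the higher library, at least 0.25 times the level of the class highest for that gene, and a ratio whose interval excluded 2-fold; the 5 highest and 5 lowest were taken in fibroblast-like cells, 4 and 4 elsewhere, and up to 2 a side from each of 29 lists, with Vegfa, Tfrc, Fth1, Cdkn1a, Jun, Col1a1 and Col3a1 always reported in fibroblast-like cells. Of the genes that met this rule, those whose role is clear are described, a few are not reported here, and a list member taken for its list may lie under 2-fold. Members, lists and this rule were chosen with earlier results of these data known. Sub-clustering, equal weights for clusters and the removal of neutrophil RNA were added after the data were seen. Equal weights took only clusters with at least 20 cells in both libraries. List members were then called by 2-fold alone, without an interval, and genes at 0 in either library were left out. Symbols used by more than 1 feature (38) were kept apart by identifier. No sequence is printed.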

Additional observations from a re-analysis of the deposited data

Results flagged for a closer look

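Ccr7 and Arl4c lay on opposite sides in different classes. Over dendritic-like cells the log2 ratio of Ccr7, continuous over pretreatment, was 1.65, and over T or innate lymphoid-like cells it was -1.61; with clusters weighted equally it was -0.36 and -0.24, on the same side. For Arl4c, a small GTPase chosen after its values were seen, it was 1.95 in fibroblast-like cells (57 and 216 UMIs, 3.85-fold higher) and -1.32 in T or innate lymphoid-like cells (408 and 693 UMIs, 2.50-fold lower). With 1 library a side these differences between classes were not tested.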

How the results depend on the processing

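No paired analysis was possible because each label has 1 library and none can be left out. Of the share differences recomputed under the alternatives, 38 moved by less than their counting interval. With at least 1000 UMIs and at most 10% mitochondrial the difference, continuous minus pretreatment, was 37.1 percentage points for neutrophil-like, 16.5 for macrophage or monocyte-like and -21.0 for dendritic-like cells, and thinned to 1000 UMIs it was 36.2 for neutrophil-like cells. Without neutrophil-like cells it was 29.9 for macrophage or monocyte-like, -24.4 for fibroblast-like, 12.3 for T or innate lymphoid-like and -2.89 for vascular endothelial-like cells. The keratinocyte-like difference, -1.29 percentage points, reversed to 1.46 without neutrophil-like cells and to 1.56 with each library clustered alone.

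Counts of genes changed with the filter and with depth, and the cause beyond fewer genes or UMIs was not tested. Higher and lower genes with at least 100 UMIs were 291 and 93 in T or innate lymphoid-like, 349 and 319 in dendritic-like, 510 and 359 in fibroblast-like, 404 and 55 in keratinocyte-like and 91 and 27 in vascular endothelial-like cells, with 428 lower in macrophage or monocyte-like cells. Thinned to 1000 UMIs they were 167 and 194, 270 and 155, 460 and 301, 161 and 78, and 113 and 56 in the same order, and 323 and 436 in macrophage or monocyte-like cells. Lower genes in keratinocyte-like cells were 511 with no low-count filter and 623 with each library clustered alone. Clusters weighted equally, an alternative added after the data were seen, gave 1166 higher and 711 lower in T or innate lymphoid-like cells. They gave 970 lower in dendritic-like and 1110 higher in macrophage or monocyte-like cells. These weighted levels have no interval of their own and leave out clusters with under 20 cells in either library.

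With equal weights the median of proliferation genes less that of all genes reversed to -0.053 in fibroblast-like cells, and so did the log2 ratios of Ctsk (0.10) and Vegfa (-0.42) there, Ccr7 in dendritic-like cells (-0.36), and Tnfrsf18 (0.22), Tnfrsf4 (0.79) and Areg (-0.64) in T or innate lymphoid-like cells. Thinning reversed Mki67 in T or innate lymphoid-like (0.51), Ccl17 in dendritic-like (0.49) and Tek in vascular endothelial-like cells (0.033). Keeping called doublets reversed MHC class II genes in vascular endothelial-like cells (-0.017). With called doublets kept the log2 ratios of Il22, Il17a and Il17f in T or innate lymphoid-like cells were 1.15, 2.34 and 2.14. With equal weights the median less that of all genes was 0.18 for NF-kB and 1.29 for interferon-stimulated genes in T or innate lymphoid-like cells, and 0.39 for NF-kB, 0.33 for hypoxia and 0.03 for iron handling genes in macrophage or monocyte-like cells. Of the list values 225 moved by no more than 0.5 and 12 moved by more without turning, and no count of genes moved by over 1.5 times with neutrophil RNA taken off.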
